A study of Mus musculus with 12 samples.

Results

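Potassium channel subunits are the genes whose symbols start with Kcn. The deposited tables list 92 of them among 21878 genes once Kcnj10 and Kcnj13 are set aside, and 68 were kept because they reached 0.5 FPKM (fragments per kilobase of transcript, relative to the fragments of the library, a level scaled to transcript length) in at least 3 of 12 libraries. The rule used levels in any group and no difference between groups. Hippocampal RNA was taken from mice with a Presenilin-1/2 conditional double knockout (DKO) and from wild-type (WT) mice, killed under sodium pentobarbital anaesthesia at 9 in the morning (Day) or 9 in the evening (Night). Each of the 4 groups, Day WT, Day DKO, Night WT and Night DKO, had 3 libraries. The sources used here do not give the Cre driver, strain, age or sex of the mice, or whether each library is 1 mouse, so p-values measure the spread between these libraries only.

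Potassium channels let potassium leave the cell and so set the resting potential, end the action potential and limit repetitive firing. Voltage-gated channels are tetramers of pore-forming subunits opened by depolarization, often with auxiliary subunits that change their gating or transport; inward rectifiers and two-pore channels hold the resting potential, and calcium-activated and sodium-activated channels open after spikes as those ions enter. In hippocampal pyramidal cells the dendritic A-type current is carried by Kv4 subunits with KChIP partners, the M-current by Kv7 (KCNQ) subunits, and the slow inhibitory response to GABA, adenosine and other transmitters by G-protein-gated inward rectifiers (GIRK channels).

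Psen2, a target of the knockout, was checked first. It stood at 1.67, 1.47 and 2.87 FPKM in Day WT and 0.520, 0.378 and 0.275 in Day DKO, and at 3.55, 2.94 and 3.64 in Night WT and 0.486, 0.351 and 0.594 in Night DKO. All 6 DKO libraries lay below all 6 WT libraries, with differences of log2(FPKM + 1) of -1.08 by day and -1.57 at night (limma, adjusted p = 0.00982 and 0.000785). Here and below, called genes have a p under 0.05 after Benjamini-Hochberg adjustment over the 12689 genes tested. Refits named as alternatives were adjusted over the genes they tested.

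Markers of excitatory neurons, interneurons, astrocytes, microglia and oligodendrocytes were present in every library. Some marker lists moved with genotype or with single libraries. The 10 choroid plexus markers summed to 77.5, 876 and 1873 FPKM in Day DKO in order of level, against 1176 to 3290 in WT libraries and 1999 to 3151 in Night DKO. The 9 microglial markers summed to 154 to 171 FPKM in Day DKO and 94.0 to 107 in Day WT, and to 110, 208 and 210 in Night DKO against 105 to 118 in Night WT. The 10 endothelial and mural markers summed to 45.5 to 47.7 FPKM in Day DKO and 54.0 to 70.7 in Day WT, and to 39.3 to 49.0 in Night DKO and 47.9 to 59.5 in Night WT. The 9 astrocyte markers summed to 469 to 528 FPKM in Day DKO and 409 to 431 in Day WT, without overlap. At night they summed to 445 to 533 in DKO and 419 to 465 in WT, and Gfap was called higher on average. The astrocyte list did not move as a whole. By day its median log2 difference was 0.15, with 0.83 for Gfap and 0.36 for Aldoc. Aqp4 and Aldh1l1 differed by 0.02 each, Gja1 by -0.03 and Sox9 by -0.22. The 9 oligodendrocyte markers overlapped between genotypes, at 320 to 397 FPKM in Day DKO and 385 to 416 in Day WT. At night they stood at 341 to 434 in DKO and 425 to 495 in WT, and Opalin was called lower on average. By day the median log2 difference of this list was -0.14, while Olig1 and Olig2 went the other way, at 0.31 and 0.105. The part of these lists in the results below was not tested. Night WT replicate 1 also stood apart in its Y-linked genes, and Night DKO replicate 1 in its low microglial sum. The 35 differences of single members with the smallest p were refitted without each of these libraries and without both. Not all of those values are printed. Other named differences, apart from that of Psen2, were not refitted, so whether they depend on either library is not known.

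The 68 subunits together summed to 413 to 460 FPKM, or 0.247 to 0.276% of the summed FPKM of a library. The 33 kept of 40 listed voltage-gated pore-forming subunits held 48.4% of that sum, the 10 of 12 voltage-gated auxiliary subunits 24.9%, the 9 of 13 inward rectifiers 11.6%, the 9 of 14 two-pore subunits 7.44%, the 5 of 10 calcium-activated subunits 6.57%, and both sodium-activated subunits 1.09%. Kcnrg, a regulator outside these classes, was not kept. Kcnj1, the renal inward rectifier, and the two-pore subunits Kcnk15 and Kcnk16 were listed at 0 in all 12 libraries. The members lowest in mean level inside the rule were Kcna5 (0.450 FPKM), Kcne4 (0.545) and Kcnk6 (0.644), and those highest outside it were Kcnmb2 (0.420), Kcnj14 (0.352) and Kcnh4 (0.285).

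**Figure D1:**
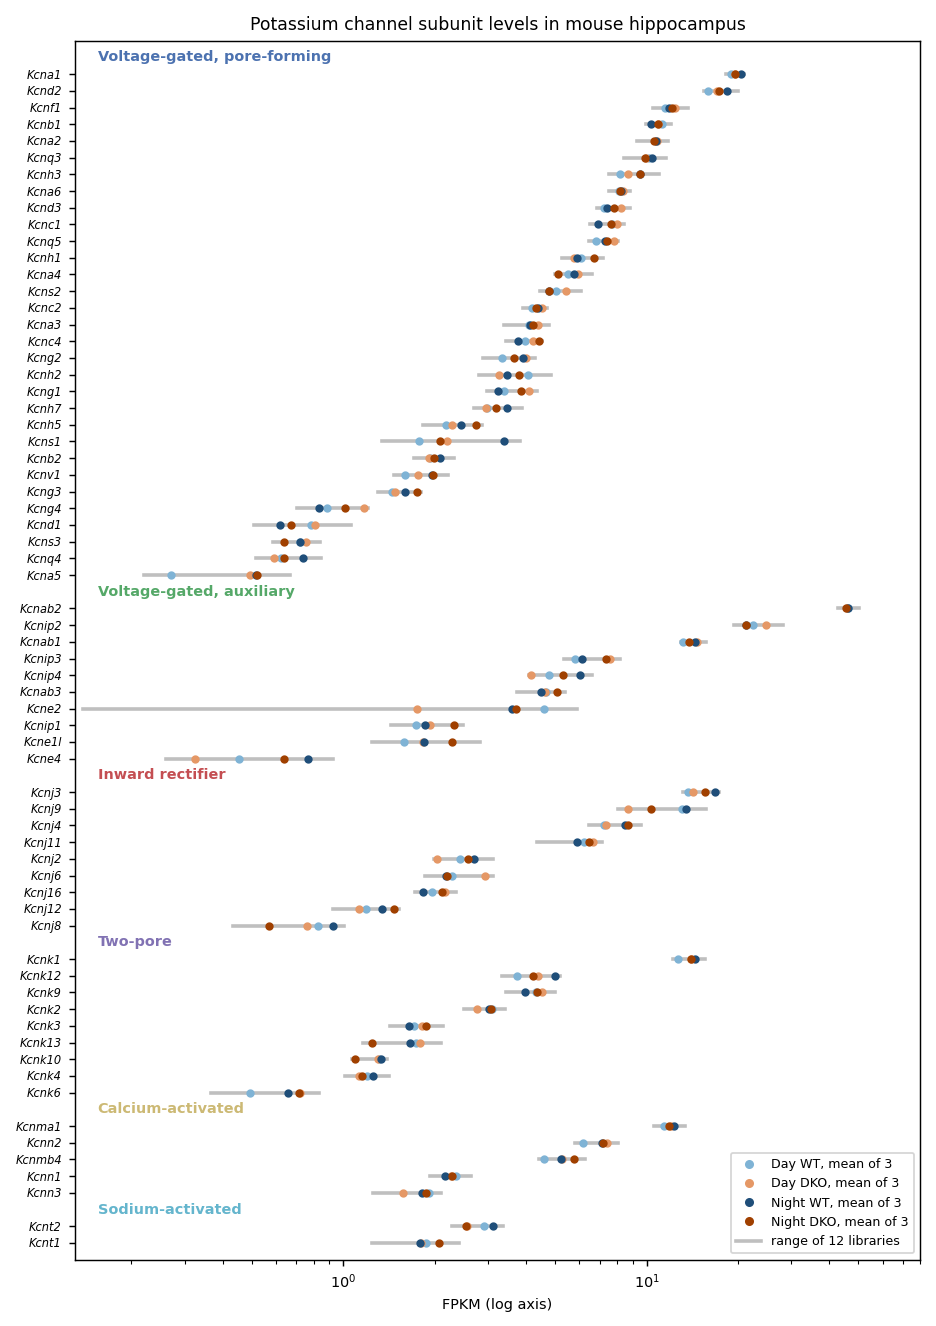
Level of 66 of the 68 kept subunits in FPKM on a log axis, grouped by class and ordered by mean; points are means of 3 libraries per group and grey bars span the 12 libraries. Kcnab2 (45.8 FPKM on average) is the highest member, most bars are short, and the widest belongs to Kcne2, from 0.138 to 5.92 FPKM.

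Pore-forming voltage-gated subunits of high mean level included Kcna1 (19.6 FPKM), a Shaker subunit of axons, Kcnd2 (17.2), the main Kv4 subunit of pyramidal dendrites, and Kcnf1 (11.98), a silent subunit that forms no channel alone. By subfamily, the summed level was 48.8 FPKM for Kv1, 31.8 for the silent subunits, 25.5 for Kv4, 24.3 for the ether-a-go-go relatives and 12.8 for Kv2. The auxiliary subunits were led by Kcnab2 (45.8) and Kcnab1 (14.03), the cytoplasmic beta subunits of Kv1 channels, and by the KChIPs Kcnip2 (22.5) and Kcnip3 (6.71). Inward rectifiers were led by Kcnj3 (15.1) and Kcnj9 (11.4), both GIRK subunits, then Kcnj4 (7.93), a strong inward rectifier, and Kcnj11 (6.31), the pore of the ATP-sensitive channel. Two-pore subunits were led by Kcnk1 (13.8), Kcnk12 (4.34), Kcnk9 (4.30) and Kcnk2 (2.99), and calcium-activated subunits by Kcnma1 (11.9), the BK pore, Kcnn2 (6.97), an SK channel, Kcnmb4 (5.21), the neuronal BK beta subunit, and Kcnn1 (2.26). The sodium-activated pair, Kcnt2 and Kcnt1, stood at 2.78 and 1.88 FPKM.

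Class sums were set side by side, first between genotypes and then between times. Pore-forming voltage-gated subunits summed to 202 ± 4.05 FPKM in Day WT, 215 ± 5.78 in Day DKO, 206 ± 13.9 in Night WT and 207 ± 2.42 in Night DKO (SD, n = 3). By day the DKO libraries (209 to 221) lay above the WT libraries (199 to 207), but with median-of-ratios scaling, which equalizes the libraries' typical gene, the ranges overlapped at 207 to 221 and 203 to 212. Auxiliary subunits summed to 105.3 ± 3.19 FPKM in Day WT and 107.5 ± 5.31 in Day DKO, and the groups overlapped at both times. Inward rectifiers summed to 48.9 ± 1.95 in Day WT, 45.9 ± 0.558 in Day DKO, 53.8 ± 4.23 in Night WT and 50.0 ± 2.00 in Night DKO. By day the highest DKO library (46.5) lay just under the lowest WT library (46.6), and at night the genotypes overlapped. With median-of-ratios scaling the day ranges stayed apart, at 44.99 to 47.2 in DKO and 47.85 to 52.47 in WT. Kcnj9, a member of this class, averaged 13.06 FPKM in Day WT and 8.69 in Day DKO, a larger gap than that between the class means. The lower class sum by day is therefore not a shift of the whole class. Of the 9 inward rectifiers 5 had a day difference above 0 (median 0.02), where 62.8% of all genes did. With median-of-ratios scaling 4 did, where 51.7% of all genes did. Two-pore sums overlapped between genotypes at both times, and so did sodium-activated sums by day (3.53 to 4.98 in DKO, 4.72 to 4.90 in WT). Calcium-activated subunits summed to 25.8 to 26.8 FPKM in Day WT and 27.4 to 30.0 in Day DKO, apart from each other, and to 26.9 to 30.6 and 28.6 to 29.7 at night. With median-of-ratios scaling the day ranges for calcium-activated subunits overlapped, at 26.2 to 28.2 and 27.1 to 30.1. Between times, inward rectifier sums in WT were 46.6 to 50.2 FPKM by day and 51.0 to 58.7 at night. In DKO they were 45.4 to 46.5 and 47.8 to 51.8, also without overlap. In WT, two-pore sums (29.9 to 30.9 by day, 32.3 to 33.7 at night) and calcium-activated sums (25.8 to 26.8, 26.9 to 30.6) were apart too. With median-of-ratios scaling the day and night ranges of each of these overlapped. All other class sums overlapped between times within each genotype. No test was made on these sums.

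**Figure D2:**
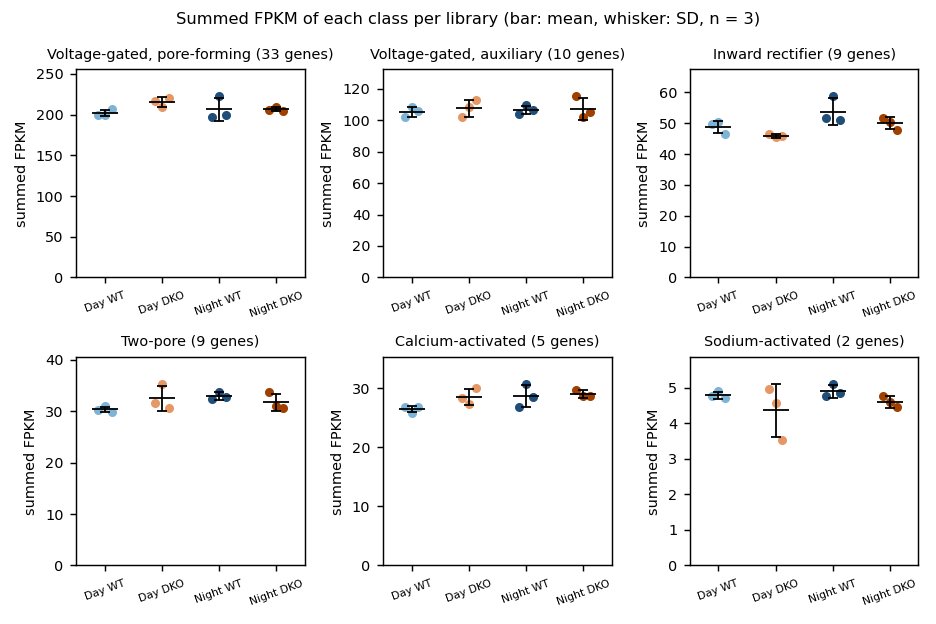
Summed FPKM of each class in each library, with axes from 0; coloured points are libraries, the horizontal bar is the group mean and the whisker the SD over 3 libraries. The voltage-gated pore-forming sums run from 198 to 222 FPKM in all 12 libraries, and the inward rectifier sum is lowest in Day DKO (45.4 to 46.5).

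The first comparison asked how subunit levels differed between genotypes. By day 1 of 68 members was called, Kcnj9, against 1.18% of all genes tested. At night limma called 0 of 68, against 0.0236% of all genes, and 12 members (17.6%) had an unadjusted p under 0.05 against 9.18% of all genes. The libraries of both genotypes did not overlap for 14 members by day (20.6%), against 19.6% of all genes, and for 11 at night (16.2%), against 15.2%. Averaged over both times, 2 of 68 were called, Kcnj9 lower and Kcnip3 higher, against 1.88% of all genes. The shares called are near the background for the list as a whole. The median member differed by 0.05 by day, 0.01 at night and 0.04 on average on the log2 scale, against 0.04, -0.01 and 0.01 over all genes.

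Kcnj9 encodes GIRK3, an inward rectifier subunit that assembles with other GIRK subunits into channels opened by G-protein beta-gamma subunits. Its gene lies on the minus strand at chr1:172320508-172329322 in GRCm38.p6. The 250 bases before its start are shown because it is the member with the largest called difference between genotypes; they hold none of the motifs searched, so no letter is in capitals (RefSeq sequence, GRCm38.p6, chr1:172329323-172329572, minus strand).
Kcnj9 promoter: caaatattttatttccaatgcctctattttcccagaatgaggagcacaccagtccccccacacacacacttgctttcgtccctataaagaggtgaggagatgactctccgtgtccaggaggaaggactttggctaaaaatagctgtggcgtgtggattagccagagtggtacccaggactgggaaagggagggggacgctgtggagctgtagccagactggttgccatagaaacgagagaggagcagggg
Kcnj9 stood at 13.47, 12.95 and 12.76 FPKM in Day WT and at 9.65, 8.39 and 8.04 in Day DKO. At night it stood at 11.89, 15.71 and 12.95 FPKM in WT and 10.8, 11.5 and 8.71 in DKO. All 6 DKO libraries were below all 6 WT libraries, and the day groups were farther apart than the night groups. A change of the genotype difference between times was called for 0 of 68 members, so none was called for Kcnj9. The log2 difference was -0.54 ± 0.106 (SE) by day (limma, adjusted p = 0.0325), -0.36 ± 0.106 at night (adjusted p = 0.339) and -0.45 ± 0.0751 averaged over both (adjusted p = 0.0146). In bulk tissue, fewer cells that express a gene and less RNA per cell cannot be told apart. The 8 excitatory neuron markers, in contrast to Kcnj9, summed to 426 to 477 FPKM in Day DKO and 402 to 426 in Day WT, and to 418 to 439 and 384 to 440 at night. The averaged call was lost only without the filter on low values (adjusted p = 0.0502) among 22 alternatives. The day call was lost without the filter (adjusted p = 0.0833), with a covariate for choroid plexus level (0.116), and without Day WT replicate 1 (0.0927), 2 (0.101) or 3 (0.0573), Day DKO replicate 2 (0.114) or 3 (0.107) or Night WT replicate 3 (0.0524), at log2 differences of -0.61 to -0.49 over all alternatives.

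The partner subunits of Kcnj9 were not called between genotypes. Kcnj3 (GIRK1), the subunit most GIRK channels contain, stood at 13.18 to 13.97 FPKM in Day WT and 13.85 to 14.66 in Day DKO. Kcnj6 (GIRK2) stood at 2.28, 1.86 and 2.70 FPKM in Day WT and 2.72, 2.97 and 3.11 in Day DKO, above the WT libraries, but was not called (0.27, adjusted p = 0.153). Of the summed FPKM of these 3 subunits, Kcnj9 made up 45% ± 1.60 in Day WT and 33.6% ± 2.88 in Day DKO, and 41.4% ± 3.65 in Night WT and 36.7% ± 3.42 in Night DKO (SD, n = 3). By day its share did not overlap between genotypes (43.4 to 46.6% against 31.2 to 36.8%), while at night it did (37.6 to 44.9% against 33.3 to 40.1%). Kcnj6 made up 7.85% ± 1.35 in Day WT and 11.4% ± 0.885 in Day DKO. Shares of a sum move together by construction, and none was tested. The remaining GIRK gene, Kcnj5 (GIRK4), had a mean of 0.0756 FPKM and was not kept.

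Kcnj9 lies 7.90 Mb from Psen2 on chromosome 1. The other kept members of chromosome 1, Kcnb2, Kcnq5, Kcne4, Kcnt2, Kcnk2 and Kcnh1, had averaged log2 differences of -0.18 to 0.10, and none was called. Kcnk2 and Kcnh1, the nearest of these to Psen2 at 8.94 and 11.9 Mb, differed by -0.05 and 0.05. Whether position near Psen2 has a part in the difference of Kcnj9 was not tested, and these values do not decide it. Kcnj10, the astrocytic inward rectifier that the rule leaves out, lies 11.9 kb from Kcnj9 and differed the opposite way, at 5.25 to 5.96 FPKM in Day WT and 6.56 to 8.58 in Day DKO, and 4.08 to 4.39 in Night WT and 5.96 to 7.25 in Night DKO (averaged log2 difference 0.46, limma, adjusted p = 0.00721).

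Kcnip3 encodes KChIP3, a calcium-binding partner of Kv4 channels that is also known as calsenilin, a presenilin-binding protein, and as the transcriptional repressor DREAM. It has 3 RefSeq start sites on chromosome 2. The window of the most upstream start is printed as the counterpart of Kcnj9, since the genotypes differed the other way; it too held none of the motifs (GRCm38.p6, chr2:127522095-127522344, minus strand).
Kcnip3 promoter: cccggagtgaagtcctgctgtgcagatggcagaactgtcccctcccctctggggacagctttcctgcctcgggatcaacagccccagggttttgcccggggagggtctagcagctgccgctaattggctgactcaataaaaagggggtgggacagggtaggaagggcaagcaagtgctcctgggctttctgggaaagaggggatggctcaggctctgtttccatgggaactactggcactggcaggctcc
Kcnip3 stood at 6.19, 5.77 and 5.45 FPKM in Day WT and 7.34, 7.17 and 8.16 in Day DKO. At night it stood at 5.33, 6.89 and 6.15 in WT and 6.78, 7.93 and 7.33 in DKO. DKO was above WT without overlap by day, and at night Night DKO replicate 1 lay just below Night WT replicate 2. The averaged log2 difference was 0.28 ± 0.0595 (SE; limma, adjusted p = 0.0335), with 0.33 by day (adjusted p = 0.0837) and 0.23 at night (adjusted p = 0.433). The 9 microglial markers also moved with genotype, with 5 called higher on average (Aif1, C1qa, Csf1r and Tyrobp among them), and their part in this result was not tested. The averaged call held in 11 of 22 alternatives, at log2 differences of 0.24 to 0.32. It was lost without the filter (adjusted p = 0.0709), with the choroid plexus covariate (0.0887), without both night libraries that stand apart (0.0624), and without Day WT replicate 2 (0.0713) or 3 (0.0633), Day DKO replicate 2 (0.0522) or 3 (0.0802), Night WT replicate 1 (0.0822) or 3 (0.0717), or Night DKO replicate 2 (0.0875) or 3 (0.0718).

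No other KChIP was called between genotypes. Kcnip4 stood at 4.56 to 4.93 FPKM in Day WT and 4.09 to 4.28 in Day DKO, with an averaged difference of -0.16 (limma, adjusted p = 0.143). Kcnip1 stood at 1.44 to 1.99 FPKM in Day WT and 1.75 to 2.19 in Day DKO, and at 1.68 to 1.97 and 2.15 to 2.48 at night (averaged difference 0.16, adjusted p = 0.221).

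Among pore-forming voltage-gated subunits 0 of 33 were called between genotypes by day, at night or on average, against 1.18%, 0.0236% and 1.88% of all genes. By day 7 of them had an unadjusted p under 0.05 in the higher direction and 0 in the lower, where 11.9% and 5.12% of all genes did. In all, 26 of 33 had a day difference above 0, where 62.8% of all genes did, and 23 of 33 did with either median-of-ratios scaling or quantile normalization, where 51.7% and 52.9% of all genes did. At night 19 of 33 were above 0, where 46.2% of all genes were.

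The nearest to a call was Kcng1, a silent subunit that modifies Kv2 channels. It stood at 3.34, 3.38 and 3.47 FPKM in Day WT and 4.37, 4.10 and 3.81 in Day DKO, and at 2.97, 3.71 and 3.01 in Night WT and 4.03, 3.84 and 3.70 in Night DKO. All 6 DKO libraries but 1 lay above every WT library, the exception being Night DKO replicate 3, which lay under Night WT replicate 2. The averaged log2 difference was 0.21 ± 0.0508 (SE; limma, adjusted p = 0.0566); it was called without Night WT replicate 2 (0.0261), with quantile normalization (0.0486) and with array quality weights (0.0376). Kcng4 and Kcng2, from the same silent subfamily, differed by 0.21 each by day (adjusted p = 0.191 and 0.174). Kcnc4, a rapidly inactivating Kv3 subunit, stood at 3.44 to 3.99 FPKM in Night WT and 4.20 to 4.52 in Night DKO (0.18, adjusted p = 0.427).

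Of the 5 calcium-activated subunits 0 were called in any of the 7 comparisons, where 0 to 6.07% of all genes were called. Kcnn2, whose channels carry part of the afterhyperpolarization, stood at 6.41, 6.29 and 5.79 FPKM in Day WT and 6.91, 7.29 and 8.07 in Day DKO, apart from each other by day (0.23, limma, adjusted p = 0.112). At night its levels of 6.83 to 7.47 in WT and 6.78 to 7.59 in DKO overlapped. Kcnmb4, which makes BK channels resistant to toxins and slows their gating, stood at 4.41 to 4.81 FPKM in Day WT and 5.12 to 5.52 in Day DKO, and at 4.53 to 5.59 and 5.42 to 6.28 at night (averaged difference 0.14, adjusted p = 0.195). Kcnma1 overlapped between genotypes at both times, at 10.6 to 12.9 FPKM by day and 11.3 to 13.4 at night. Kcnn1 and Kcnn3, the other SK subunits kept, overlapped by day at 1.93 to 2.63 and 1.26 to 2.10 FPKM.

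Neither sodium-activated subunit was called in any comparison, where 0 to 6.07% of all genes were called. Kcnt2 stood at 2.65 to 3.37 FPKM in Day WT and 2.28 to 2.83 in Day DKO, and at 3.07 to 3.19 in Night WT and 2.45 to 2.67 in Night DKO, apart at night (averaged difference -0.18, limma, adjusted p = 0.127). Kcnt1 overlapped between genotypes by day at 1.25 to 2.41 FPKM.

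Two-pore subunits gave 0 calls in any comparison among 9, where 0 to 6.07% of all genes were called. Kcnk13, the THIK-1 channel of microglia, stood at 1.44, 1.67 and 2.10 FPKM in Day WT and 1.82, 1.91 and 1.63 in Day DKO, and at 1.92, 1.66 and 1.40 in Night WT and 1.30, 1.26 and 1.16 in Night DKO. Its night levels were lower in DKO without overlap (-0.24, limma, adjusted p = 0.452), whereas the summed microglial markers were higher in 2 of those 3 libraries than in any WT library. Kcnk10, a mechanically and lipid gated channel, was also lower at night in each DKO library (1.07 to 1.11 FPKM) than in each WT library (1.29 to 1.39; -0.15, adjusted p = 0.433). Kcnk6 stood at 0.367 to 0.589 FPKM in Day WT and 0.643 to 0.834 in Day DKO (0.21, adjusted p = 0.199).

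Kcnj8, the ATP-sensitive inward rectifier of vascular mural cells, stood at 0.784, 1.01 and 0.978 FPKM in Night WT and 0.756, 0.434 and 0.521 in Night DKO. Every DKO library was below every WT library at night, without a call (-0.30, limma, adjusted p = 0.309). By day the ranges overlapped, at 0.770 to 0.933 and 0.695 to 0.807 FPKM. The summed endothelial and mural markers were lower in DKO by day without overlap and overlapped at night, and 3 of the 10, Acta2, Myh11 and Tagln, were called lower on average; their part in the level of Kcnj8 was not tested.

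Kcne2, a single-span subunit known in choroid plexus epithelium, was the most variable member. It stood at 5.92, 5.44 and 2.42 FPKM in Day WT, 2.33, 0.138 and 2.80 in Day DKO, 4.99, 1.66 and 4.16 in Night WT and 4.64, 2.77 and 3.76 in Night DKO. Its lowest library, Day DKO replicate 2, was also lowest in Ttr, the leading choroid plexus transcript, at 55.3 FPKM against 786 to 3032 in the other 11. The day difference of Kcne2 was -1.13 ± 0.423 (SE; limma, adjusted p = 0.203), with a 95% interval of -2.05 to -0.22 that is not adjusted for the number of genes. By day 0 of the 10 choroid plexus markers were called, against 1.18% of all genes.

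**Figure D3:**
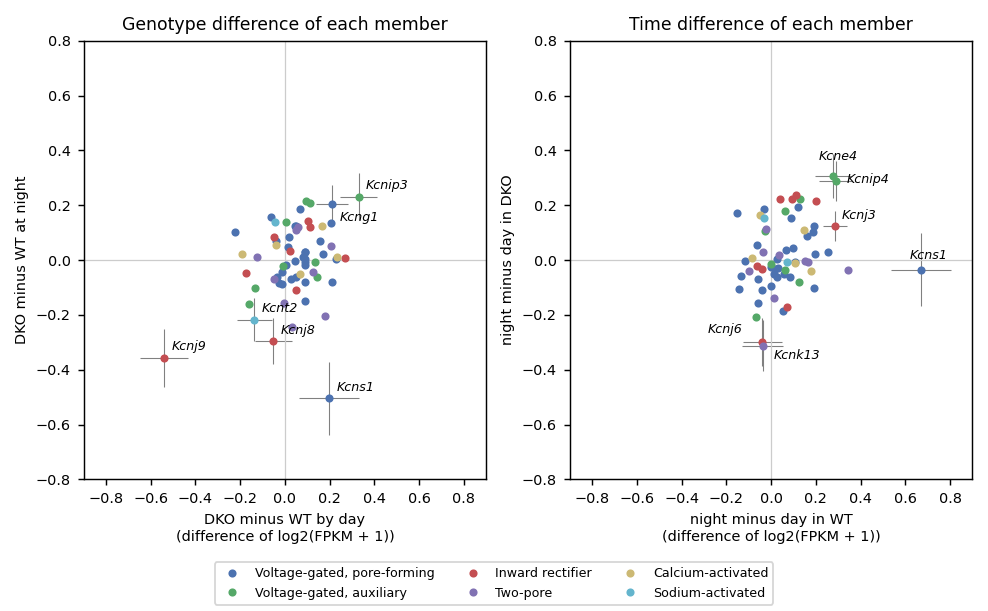
Difference of log2(FPKM + 1) of 65 of the 68 members, DKO minus WT by day and at night on the left and night minus day in WT and DKO on the right; colours give the class, and lines at the labelled genes are 1 SE. Kcne2 lies outside the plotted range and is left out. Kcnj9 (-0.54 by day, -0.36 at night) stands apart on the left, and Kcnip4 and Kcne4 are higher at night in both genotypes on the right, while Kcns1 is higher at night in WT (0.67) and at -0.03 in DKO.

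The next comparison asked how levels differed between the 2 times. In WT 2 of 68 members were called, both higher at night, Kcnj3 and Kcns1, against 1.67% of all genes (1.51% higher). In DKO limma called 0 of 68, against 0.299% of all genes, with 14 members at an unadjusted p under 0.05 (20.6%) against 15.1% of all genes. Day and night libraries did not overlap for 17 members in WT (25%), against 28.7% of all genes, and for 14 in DKO (20.6%), against 19.4%. Averaged over genotypes 5 of 68 were called, against 6.07% of all genes. Kcnip4, Kcnj3 and Kcne4 were higher at night, against 5.19% of all genes called higher, and 2 members were lower, against 0.875% called lower. Kcne4 entered the test through its night libraries (6 at the minimum, against 1 by day), so its place in these counts is no support for a pattern. The median member differed by 0.03 between times, against 0.05 over all genes, and by -0.01 with median-of-ratios scaling and -0.02 with quantile normalization, so the direction of that median depends on the scaling.

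Kcnip4 encodes KChIP4, a Kv4 partner with isoforms that slow inactivation and keep the channel inside the cell. It stood at 4.77, 4.93 and 4.56 FPKM in Day WT and 5.54, 6.61 and 5.96 in Night WT. In DKO it stood at 4.09, 4.28 and 4.09 by day and 5.87, 4.76 and 5.28 at night. Night was above day without overlap in each genotype, with a log2 difference of 0.29 in WT and in DKO, neither of them called (limma, adjusted p = 0.0642 and 0.114). The average over genotypes was 0.29 ± 0.0519 (SE; adjusted p = 0.0124). That averaged call was kept in all 22 alternatives (adjusted p = 0.0107 to 0.0348), while the difference within either genotype was called in 0 of 23. The gene spans 31 other annotated genes, and the sources used here do not give the strand setting of the counting, so reads of these could be shared.

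Kcnj3 stood at 13.18, 13.90 and 13.97 FPKM in Day WT and 17.38, 17.00 and 16.27 in Night WT. In DKO it stood at 13.9, 14.1 and 14.7 by day and 16.5, 15.0 and 15.3 at night. Every night library was above every day library. The log2 difference was 0.28 ± 0.0537 in WT (SE; limma, adjusted p = 0.0344), 0.12 ± 0.0537 in DKO (0.297) and 0.20 ± 0.0380 on average (0.0135), and the difference between genotypes was -0.16 (adjusted p = 0.578). Without both night libraries that stand apart the averaged adjusted p was 0.0778. The call in WT was lost with median-of-ratios scaling (0.0748), quantile normalization (0.0849), a fit of the groups compared alone (0.0793), without Day WT replicate 1 (0.135) or 2 (0.0616), without Night WT replicate 1 (0.109), 2 (0.103) or 3 (0.0947), and without both night libraries that stand apart (0.131).

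Kcne4, a single-span subunit that inhibits Kv1 and Kv7 channels, is among the lowest members. It stood at 0.545, 0.432 and 0.379 FPKM in Day WT and 0.925, 0.680 and 0.682 in Night WT, and at 0.260, 0.430 and 0.287 in Day DKO and 0.580, 0.629 and 0.706 in Night DKO. Every night library was above every day library, with an averaged log2 difference of 0.29 ± 0.0567 (SE; limma, adjusted p = 0.0169), a scale that understates changes below 1 FPKM. Kcne4 reached 0.5 FPKM in 6 night libraries and 1 day library, so it was admitted to the test through the group in which it is high, and its call is no support for a pattern over the members. Without the filter the adjusted p was 0.0217. It was 0.0602 without both night libraries that stand apart, the sole loss among 21 alternatives.

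Since the libraries differ by hour, the 250 bases before each RefSeq start (GRCm38.p6) were searched on both strands for elements known from daily or activity-dependent transcription. Windows were found for 48 of 68 members, 72 windows in all, with none for Kcng1. The E-box CACGTG, bound by CLOCK and BMAL1, stood in 4 of 72 windows (5.56%), against 6.02% of 32851 windows of all genes. The D-box (TTATGTAA or TTACGTAA), the ROR response element and the cyclic AMP response element TGACGTCA stood in 0 of 72, against 0.931%, 0.332% and 1.55% of all windows. No searched match overlapped another. The median GC content was 59% for member windows and 52.4% for all. The 4 E-box windows belong to Kcne4, Kcnj2 and Kcnab1, of which Kcne4 was called; 30 bases around each are printed to show what the letters match, with the E-box in capitals. They lie at chr1:78816845-78816874, chr11:111066068-111066097, chr3:65108840-65108869 and chr3:65188046-65188075, all on the plus strand, with the E-box starting 54, 84, 162 and 45 bases before the start.
Kcne4: ttcctcccggaaCACGTGacgatgcatttc
Kcnj2: gggaagcgcagcCACGTGcgctccgattgg
Kcnab1 start 2: cagaagagcattCACGTGttaatcagtagt
Kcnab1 start 3: tatcttacaaagCACGTGcctctagttttg
Kcnip4, whose averaged time difference was called in every alternative, has 2 RefSeq start windows, and neither held a motif. All 250 bases of the downstream window lie in annotated exons, as do 153 of the 250 bases of the Kcne4 window. The Kcnip4 window of the upstream start, with 0 exonic bases, is printed for contrast (chr5:49285660-49285909, minus strand).
Kcnip4 promoter: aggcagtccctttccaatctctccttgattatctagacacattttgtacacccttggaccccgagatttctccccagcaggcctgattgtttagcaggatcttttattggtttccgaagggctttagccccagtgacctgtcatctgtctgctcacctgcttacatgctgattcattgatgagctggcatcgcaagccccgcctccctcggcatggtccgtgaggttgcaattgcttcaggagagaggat
A match is a description of letters and shows no binding.

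Kcnj2, a strong inward rectifier, stood at 2.41 to 2.43 FPKM in Day WT, 2.48 to 3.13 in Night WT, 2.00 to 2.06 in Day DKO and 2.44 to 2.74 in Night DKO. Every night library was above every day library, and the averaged difference of 0.17 missed the threshold (limma, adjusted p = 0.0529). Kcnab1 stood at 13.00 to 13.37 FPKM in Day WT and 13.95 to 15.49 in Night WT, and at 13.3 to 15.7 and 13.1 to 14.2 in DKO, where the times overlapped. Kcnj4 differed between times by 0.21 on average (adjusted p = 0.0586), at 6.441 to 8.004 FPKM by day and 7.53 to 9.57 at night in WT, overlapping, and 6.92 to 7.76 and 8.34 to 9.14 in DKO, apart. Among the 9 inward rectifiers 5 had an averaged time difference above 0, also with either other scaling. Kcnj6 went the other way in DKO, from 2.72 to 3.11 FPKM by day to 2.15 to 2.25 at night (-0.30, adjusted p = 0.156).

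Of the 33 pore-forming voltage-gated subunits, 21 had a time difference above 0 in WT, where 72.1% of all genes did, and 13 in DKO, where 58.7% did. With median-of-ratios scaling these counts were 13 (52% of all genes) and 11 (49%), and with quantile normalization 12 (50.6%) and 9 (46.9%), so the larger number was higher at night in WT only with the values as deposited among these 3 scalings. Kcnd2 stood at 15.5 to 16.1 FPKM in Day WT and 17.4 to 20.1 in Night WT, apart, without a call (0.20, limma, adjusted p = 0.141), and at 15.7 to 18.4 and 16.0 to 18.0 in DKO. Kcna5, a Shaker subunit near the floor of the rule, stood at 0.220 to 0.335 FPKM in Day WT and 0.440 to 0.571 in Night WT. It reached 0.5 FPKM in 0 Day WT libraries, 1 Day DKO library and 4 night libraries, and entered mainly through the night libraries, so this difference is a description only. Among two-pore subunits Kcnk12, a silent THIK relative, stood at 3.40 to 4.10 FPKM in Day WT and 4.797 to 5.193 in Night WT (0.34, adjusted p = 0.121), and Kcnk13 at 1.63 to 1.91 in Day DKO and 1.16 to 1.30 in Night DKO (-0.31, adjusted p = 0.162).

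**Figure D4:**
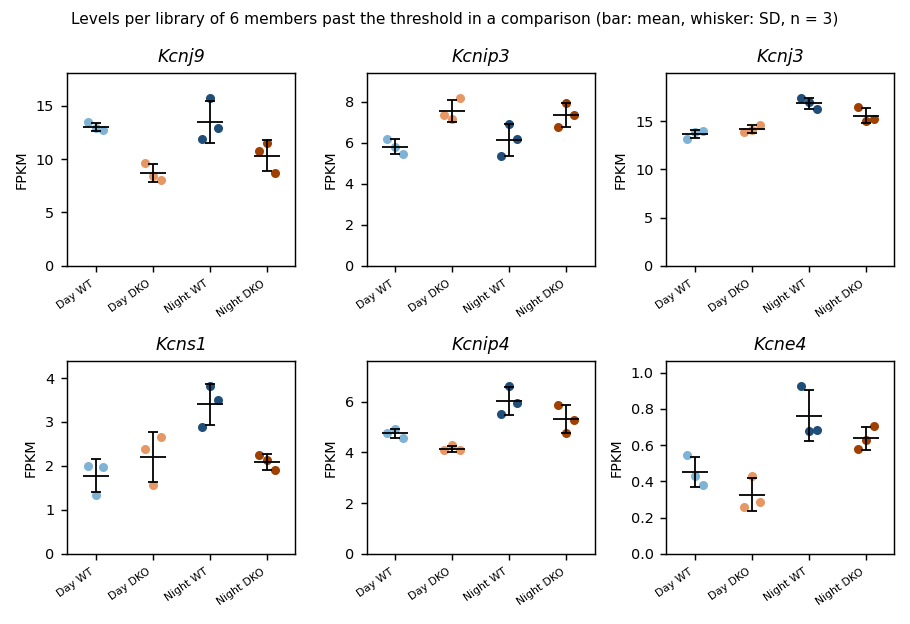
FPKM per library of 6 of the 8 members called in any comparison, with axes from 0; points are libraries, the bar is the mean and the whisker the SD over 3 libraries. Kcnj9 is lower in DKO at both times, Kcnip4, Kcnj3 and Kcne4 are higher at night in both genotypes, and Kcns1 is high in Night WT alone (2.88 to 3.81 FPKM).

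The last comparison asked whether the genotype difference changed with time. With limma 0 of 68 members and 0% of all genes were called for this interaction, and 7 members (10.3%) had an unadjusted p under 0.05 against 8.66% of all genes. The smallest p belonged to Kcns1, a silent subunit that modifies Kv2 channels and is known in interneurons and sensory neurons. Kcns1 stood at 2.00, 1.34 and 1.98 FPKM in Day WT, 2.38, 1.56 and 2.67 in Day DKO, 2.88, 3.81 and 3.51 in Night WT and 2.26, 2.12 and 1.90 in Night DKO. The Night WT libraries were above all other 9. In WT night was higher by 0.67 ± 0.134 (SE; limma, adjusted p = 0.0390), in DKO the difference was -0.03, and the interaction was -0.70 with a 95% interval of -1.11 to -0.29 (adjusted p = 0.484). That interval is not adjusted for the choice of Kcns1 by its p, so its distance from 0 is no evidence of an interaction. The night difference between genotypes was -0.50 (adjusted p = 0.298). The 10 interneuron markers summed to 343 to 385 FPKM in Night WT and 316 to 382 in Night DKO, overlapping, and 317 to 381 in Day WT. The call in WT was lost with median-of-ratios scaling (0.0786), quantile normalization (0.0718), no filter (0.0669), a fit of the groups compared alone (0.0707) or without both night libraries that stand apart (0.102). It was also lost without Day WT replicate 1 (0.109) or 2 (0.0859), or any single library of Night WT (0.0794, 0.132 and 0.0970 for replicates 1, 2 and 3) or Night DKO (0.0518, 0.0550 and 0.0534).

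Next by interaction p came Kcng2 (-0.29), Kcnn2 (-0.22), Kcna4 (-0.24) and Kcnk12 (-0.38), with limma adjusted p of 0.549 to 0.563. Kcng2 stood at 2.89 to 3.56 FPKM in Day WT and 3.84 to 4.30 in Day DKO, and at 3.880 to 4.001 and 3.33 to 3.89 at night, so DKO was above WT by day and overlapped at night. Kcna4, an A-type Shaker subunit, stood at 5.40 to 5.59 FPKM in Day WT and 5.55 to 6.61 in Day DKO, and at 5.37 to 6.46 and 4.99 to 5.21 at night, so DKO was below WT at night.

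Genes with other names that assemble with, anchor or resemble potassium channels were taken from a list of 32, of which 28 were tested. Between genotypes 0 of 28 were called by day, at night or on average, against 1.18%, 0.0236% and 1.88% of all genes. The medians were 0.11, -0.01 and 0.02, against 0.04, -0.01 and 0.01 over all genes. Between times 1 of 28 was called in WT and on average, against 1.67% and 6.07% of all genes. It was Vapa, an endoplasmic reticulum protein that clusters Kv2 channels. Vapa stood at 22.2, 25.3 and 24.5 FPKM in Day WT, 26.0, 25.8 and 26.5 in Day DKO, 29.8, 31.2 and 30.4 in Night WT and 27.7, 28.2 and 29.9 in Night DKO, with every night library above every day library (averaged difference 0.23, limma, adjusted p = 0.0116). Dpp10, a transmembrane Kv4 partner, differed between times by 0.31 (adjusted p = 0.0673) and Ank3, which anchors Kv7 channels at the axon initial segment, by -0.14 (0.102). Dlg4 and Dlg2, scaffolds that bind Kv1 and Kir2 channels, had the smallest genotype p-values (0.15 and 0.10, adjusted p = 0.140 and 0.228).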

How the data were processed

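The authors deposited 1 table per library with FPKM for 21878 genes, the unit being inferred from the value range because headers hold sample names alone. Per the labels' protocols, stranded libraries were made from total RNA after ribosomal RNA removal; the submitters' processing notes name build GRCm38.p6. The sources used here do not give the aligner, quantifier or depth, so no counting interval can be given. Values were transformed to log2(FPKM + 1), and genes reaching 0.5 FPKM in 3 or more libraries entered limma 3.58.1 in R 4.3.3 (1 mean per group, 4 groups, variance trend), 2-sided, with Benjamini-Hochberg adjustment over 12689 genes in each of 7 comparisons. Adjusted p-values come from this fit unless an alternative is named with the value. Each alternative was adjusted over the genes it tested. Intervals are not adjusted for the number of genes. Over the 68 members the median 95% interval reached 0.167 to each side for a pairwise difference, 0.118 for an averaged one and 0.237 for the interaction. The design had foreseen a count model if counts were given.

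The members and gene lists were chosen with earlier results of these data known. Named genes are members called in a comparison, the 4 highest of each class, the 5 smallest p of each comparison, Psen2, partners called or with the smallest p, and members next to the expression rule; others named are their relatives or hold a motif, chosen after their values were seen. The scripts were tested on simulated data. Other lists were excitatory neurons, interneurons, astrocytes, microglia, oligodendrocytes, endothelial and mural cells, choroid plexus and activity-induced genes. The 12 activity-induced genes summed to 133 to 194 FPKM. Alternatives, covering pseudocounts, filters, scalings, blocks, weights and libraries left out, are in the closing section. Some members and list genes are not reported here.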

Additional observations from a re-analysis of the deposited data

How the results depend on the processing

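The 35 differences of single members with the smallest p, 5 in each comparison, were recomputed under 21 to 23 alternatives, and none of these changed sign; other named differences were not recomputed. The count of members called by day (1) was 0 without a filter or with a covariate for choroid plexus level, and 0 to 2 when 1 library was left out in turn. At night and for the interaction it was 0 throughout. In WT the count by time (2) was 1 without a filter and 0 with median-of-ratios scaling, quantile normalization, a fit of only the groups compared, or both night libraries that stand apart left out, and 0 to 2 with 1 library left out. In DKO the count by time (0) was 1 with at least 1 FPKM in 6 libraries, median-of-ratios scaling or quantile normalization, and 0 to 1 with 1 library left out. Averaged over times the genotype count (2) was 0 without a filter, 1 with the choroid plexus covariate, 1 without both night libraries, and 1 to 3 with 1 library left out. Averaged over genotypes the time count (5) was 3 with the covariate, 1 without both night libraries, and 4 to 8 with 1 library left out. The covariate and the removal of both night libraries were chosen after seeing the data; the cause of these changes was not tested. The Psen2 difference kept its call and direction in every alternative. With the replicate number as a block the counts were 1 by day, 0 at night, 2 in WT, 0 in DKO, 0 for the interaction, 2 and 5 for the averages, the last with 4 higher and 1 lower. The numbers share no stated source: deviations of same-numbered libraries correlated at -0.116 to 0.247 over 18 pairs, 7 above 0.1, and 9 of 12 libraries correlated best with their own number. Another scaling moved the median of all genes by at most 0.0715 in size (night against day in WT). Depth is unknown, and 3 libraries a group limit the precision.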
